A study of Mus musculus with 4 samples.

Results

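miR-221 and miR-222 are a pair of microRNAs (miRNAs) cut from neighboring hairpins on the mouse X chromosome. All sequences in the deposited table that carry one of the 4 names mmu-miR-221-3p, mmu-miR-221-5p, mmu-miR-222-3p and mmu-miR-222-5p were taken. These were 759 of the 85704 sequences, and the 4 names are 4 of 1029 miRNA names in the table. By name, 460 sequences belonged to miR-222-3p, 268 to miR-221-3p, 23 to miR-222-5p and 8 to miR-221-5p.

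The data come from an experiment on aging. Small RNAs bound to the RNA-induced silencing complex (RISC) were isolated from the combined cortex and hippocampus of male C57BL/6J mice, either 2 months or 18 months old and here called young and old, with 2 libraries per age. The method, Ago-RP-Seq, pulls all Argonaute (Ago) proteins out of a tissue lysate with a peptide of their partner GW182 and sequences the small RNAs they hold. The mice were bought from a supplier, both ages were unmodified and untreated as far as the labels and methods say, and the number of mice behind each library is not given, so p-values below measure only the spread between these libraries, which may be technical.

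A miRNA hairpin is cut by Drosha and Dicer into a short duplex, one strand of which stays in the RISC as the guide while the other, the passenger, is mostly discarded. The guide finds mRNAs mainly through its seed, the bases next to its 5′ end. miR-221-3p and miR-222-3p are the guide strands of their hairpins. They are known as miRNAs of vessel walls, where they act on the receptor Kit in endothelial cells, and as promoters of cell division in tumors through the cell cycle inhibitor Cdkn1b. Both names share a seed, so they can bind the same sites.

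The mature sequences from RefSeq (build GRCm38.p6) show the shared seed, with bases 2 to 8 in capitals. The RefSeq table holds no mature entry for miR-222-5p, and the most abundant sequence of that name in these libraries is shown in its place.

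miR-221-3p: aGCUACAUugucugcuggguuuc
miR-222-3p: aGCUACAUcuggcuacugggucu
miR-221-5p: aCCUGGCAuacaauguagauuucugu
miR-222-5p, most abundant read: gGCUCAGUagccaguguagaucc

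The guide strands were identical over their first 8 bases and at 11 of 23 positions in all. No sequence of either guide strand was found whole in the hairpin of the other. Sequences with added or changed bases could not be found whole, so the comparison cannot decide for them. Passenger strand sequences were not compared. The hairpins from RefSeq follow, 5′ to 3′, with the most abundant read of each arm in capitals.

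Mir221 hairpin: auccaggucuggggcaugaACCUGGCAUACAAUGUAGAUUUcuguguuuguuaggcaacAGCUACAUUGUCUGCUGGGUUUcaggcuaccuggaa
Mir222 hairpin: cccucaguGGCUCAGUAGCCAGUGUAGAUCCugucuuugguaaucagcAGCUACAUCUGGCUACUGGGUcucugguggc

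On GRCm38.p6 the Mir221 hairpin lies on the minus strand of chromosome X from 19146294 to 19146388 and the Mir222 hairpin on the same strand from 19146893 to 19146971, so Mir222 is transcribed first and 504 bases separate the hairpins. The mature miR-221-3p spans 19146307 to 19146329, miR-221-5p 19146344 to 19146369 and miR-222-3p 19146901 to 19146923. No other gene of GENCODE M21 or RefSeq overlaps the locus, which is intergenic in both annotations. The nearest gene, Gm14636, a processed transcript on the same strand, is 10010 bases away.

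Each library held 9067007 to 11388999 reads, recovered from the deposited normalized counts (CPM, counts scaled to the same sum in each library), and 1 read was worth 0.0878 to 0.110 CPM. The neuronal miR-124-3p, among the most abundant miRNAs of the table, stood at 104115 and 107034 CPM in young and 98222 and 69405 CPM in old libraries. It was thus lower in both old libraries, while the neuronal miR-128-3p and miR-9-5p overlapped between the ages. Among cell type miRNAs, both epithelial miRNAs tested (miR-141-3p and miR-200b-3p) were higher at 18 months in both libraries, with a summed level of 8198 and 12487 CPM in young and 18033 and 18799 CPM in old libraries, while of the arms of endothelial miR-126a the 3p arm was lower, at 9242 and 8854 CPM against 2557 and 6489 CPM, and the 5p arm overlapped between the ages, at 3000 and 2618 CPM against 2865 and 2501 CPM. Of the miRNAs of white blood cells and microglia, miR-142a-5p was lower in both old libraries, at 176 and 208 CPM against 129 and 173 CPM. The others of that group (miR-142a-3p and miR-223-3p) overlapped between the ages. So did the listed miRNAs of oligodendrocytes, red blood cells and choroid plexus. The part of all these miRNAs in the results below was not tested. In bulk tissue, fewer cells of a type and less RNA per cell cannot be told apart.

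miR-222-3p was the most abundant of the 4 names in every library, followed by miR-221-3p, and the 5p arms were far lower. miR-222-3p measured 11544 and 12055 CPM in young and 16498 and 12337 CPM in old libraries, which placed it between 13th and 22nd among all miRNA names. miR-221-3p measured 8304 and 6377 CPM in young and 9466 and 10848 CPM in old libraries, between 27th and 42nd. CPM compares one small RNA between libraries. Between different small RNAs it also carries how well each is ligated and amplified, which was not measured.

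The passenger strand miR-222-5p measured 45.1 and 20.5 CPM in young and 30.7 and 30.3 CPM in old libraries, from 234 to 473 reads. miR-221-5p measured 17.9 and 8.69 CPM in young and 9.74 and 15.99 CPM in old libraries, from 99 to 188 reads. For both passenger strands the 2-month replicates were further apart than the mean levels of the ages.

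Both guide strands were higher in both old libraries than in either young one. This held for 55 of the 456 miRNAs tested (12.1%). Neither guide strand passed the test at an unadjusted p under 0.05, the threshold the study used for single sequences, in limma on log2(CPM + 1) for all miRNAs with a mean of at least 10 CPM. In that fit 74 of 456 miRNAs (16.2%) passed, 19 of them higher at 18 months (4.17%) and 55 lower (12.1%), and 1 (0.219%) passed after adjustment.

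For miR-221-3p the young mean was 7340 ± 1362 CPM (SD, n = 2) and the old mean 10157 ± 978 CPM (SD, n = 2), a log2 difference of 0.48 (SE 0.23, limma with Benjamini-Hochberg adjusted p = 0.360). For miR-222-3p the means were 11799 ± 361 CPM (SD, n = 2) and 14417 ± 2942 CPM (SD, n = 2), a log2 difference of 0.27 (SE 0.23, limma adjusted p = 0.520). The higher 18-month mean of miR-222-3p rested on replicate 1. Without it the log2 difference was 0.06, since 18-month replicate 2 (12337 CPM) was close to 2-month replicate 2 (12055 CPM). The log2 difference was -0.00 for miR-221-5p (SE 0.43, limma adjusted p = 0.998) and 0.00 for miR-222-5p (SE 0.39, limma adjusted p = 0.999).

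The choice of scale moved these differences. On the CPM scale the median log2 difference over the 456 miRNAs was -0.22, and after a median-of-ratios rescaling over miRNAs it was -0.01, with 39 miRNAs then called higher (8.55%) and 25 lower. On that scale the log2 difference was 0.69 for miR-221-3p (SE 0.23, limma adjusted p = 0.231), which passed at an unadjusted p under 0.05, and 0.49 for miR-222-3p (SE 0.24, limma adjusted p = 0.431), which did not. The passenger strands then stood at 0.19 and 0.21, so that the sign for miR-221-5p turned. Relative to the median miRNA, miR-221-3p was thus past the unadjusted threshold on the rescaled counts and short of it on CPM, and no scale brought a member past the adjusted one.

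**Figure D1:**
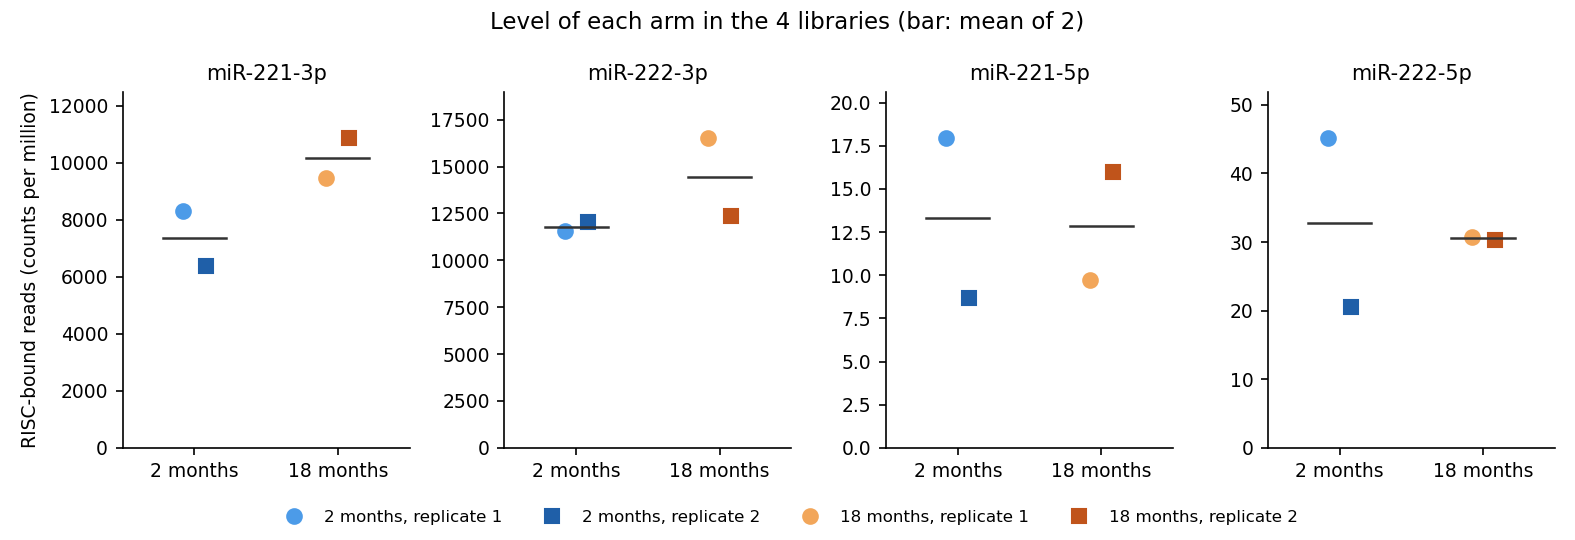
RISC-bound reads of each of the 4 names, in CPM on linear axes that start at 0, for the 2 libraries of each age (points) with their mean (bar). miR-221-3p runs from 6377 and 8304 at 2 months to 9466 and 10848 at 18 months, while 1 of the 18-month points of miR-222-3p lies at 12337, beside the 2-month points, and both 5p arms overlap between the ages.

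**Figure D2:**
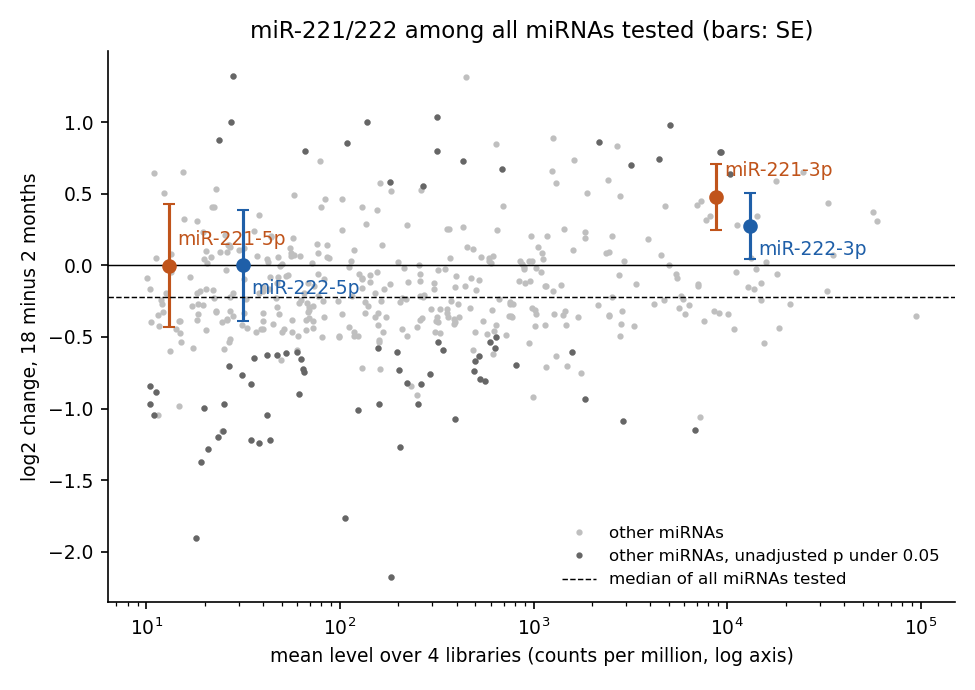
Log2 difference between 18 and 2 months on the CPM scale against mean level (log axis) for the 456 miRNAs tested, with the 4 names in color and bars of 1 SE. The dashed line is the median of all miRNAs at -0.22, dark gray points passed an unadjusted p under 0.05, and the guide strands sit above the line at high level while the 5p arms sit at 0.

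The arms kept their roles in every library. The ratio of 3p to 5p reads was 463 and 734 for miR-221 at 2 months and 972 and 678 at 18 months. For miR-222 it was 256 and 587 in young and 537 and 407 in old libraries. The 5p share was at most 0.216% of the reads of miR-221 (95% Wilson interval 0.187% to 0.248%) and 0.389% of those of miR-222 (0.356% to 0.426%), both in 2-month replicate 1. That library had the lowest ratio for both hairpins. Between the ages the ratios overlapped, with exact two-sided permutation p = 0.667 for miR-221 and p = 1 for miR-222 (n = 2 and 2), in a design whose smallest possible p is 0.33.

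The guide strands come from hairpins of one locus, and the ratio of their levels differed from library to library. There were 1.39 and 1.89 reads of miR-222-3p for each read of miR-221-3p in young and 1.74 and 1.14 in old libraries. The ages overlapped (exact two-sided permutation p = 0.667, n = 2 and 2). The log2 ratio spanned a wider range within each age than the 0.20 between the means of the ages.

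The order of the 4 libraries was compared over the 273 miRNAs with a mean of at least 100 CPM, by the root mean square distance between log2 levels after each miRNA was centered on its own mean. This is a description over 4 libraries. Nearest to miR-221-3p were miR-106b-5p (distance 0.07), a member of a proliferation-associated cluster, miR-598-3p (0.08) and miR-344-3p (0.10). miR-222-3p came 50th in that order, at a distance of 0.29. Nearest to miR-222-3p were miR-129-2-3p (0.07), a neuronal miRNA, miR-146a-5p (0.08), a miRNA of the inflammatory response, and miR-26a-5p (0.12). miR-221-3p came 77th.

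The lists of related miRNAs gave a background for the guide strands. Of the 6 vascular miRNAs (both arms of miR-126a, of endothelium, and of miR-143 and miR-145a, of smooth muscle), 1 (16.7%) passed the test and was lower, miR-126a-3p (log2 difference -1.15, limma adjusted p = 0.266), against 12.1% of all miRNAs called lower. The median of the list was -0.21 on the CPM scale and 0.00 on the rescaled one. The abundant smooth muscle miRNAs miR-143-3p (3767 and 3739 CPM at 2 months, 2565 and 3051 CPM at 18 months) and miR-145a-5p (2648 and 2821 CPM, then 2468 and 1865 CPM) were lower in both 18-month libraries without passing. The other arms of these hairpins did not share that order. The rare miR-143-5p was higher in both 18-month libraries (15.1 and 22.4 CPM, then 27.4 and 26.6 CPM, log2 difference 0.53), and miR-145a-3p (0.07) and miR-126a-5p (-0.07, or 0.15 rescaled) overlapped between the ages, all without passing. Of the 6 vascular miRNAs, only the rare miR-143-5p thus had a log2 difference above those of the guide strands. All the others lay below both.

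Of 5 inflammation-associated miRNAs, 4 were tested and none passed at an unadjusted p under 0.05 in limma, nor after adjustment. Their median was 0.12, or 0.33 on the rescaled scale. miR-21a-5p, widely induced in inflammation, measured 4266 and 3966 CPM in young and 5386 and 5565 CPM in old libraries, and its log2 difference of 0.41 was close to that of miR-221-3p. The others tested overlapped between the ages, with log2 differences of 0.28 for miR-146a-5p, -0.05 for miR-146b-5p and -0.16 for miR-21a-3p. Of 149 mature miRNAs that RefSeq places on chromosome X, 78 were in the table and 43 were tested, with 1 higher (miR-362-3p) and 4 lower, and a median of -0.13 (0.08 rescaled). These are 2.33% and 9.30% of the list, against 4.17% and 12.1% of all miRNAs. miR-221-3p, miR-221-5p and miR-222-3p are themselves in this list and enter its shares and median.

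The shared seed made this pair count as one in the seed analysis of the study, which sorts small RNAs by their 6mer seed (positions 2 to 7) and by the viability of that seed. Viability, in percent of the control, was measured after transfection of 3 mouse cell lines with a duplex that carries the seed and averaged, and low values mark toxic seeds. The seed of both guide strands, GCUACA, has a viability of 63.7%. No other miRNA name has this seed in its most abundant sequence. Reads with it were 1.96% and 1.82% of the young and 2.56% and 2.30% of the old libraries. That the ages did not overlap restates the order of the guide strands, and how many other seeds did so was not counted. This seed ranked 13th and 15th among 3925 seeds at 2 months and 11th in both 18-month libraries. The 2 names gave 98.8% to 98.9% of these reads.

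The passenger strands carry other seeds. The seed of miR-221-5p, CCUGGC, has a viability of 12.9% and is thus the toxic one of the set, and all 8 sequences of this name begin at the same base. miR-222-5p had starts 3 bases apart, shown here with bases 2 to 8 in capitals because the start sets the seed.

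miR-222-5p, upstream start: gGCUCAGUagccaguguagaucc
miR-222-5p, downstream start: uCAGUAGCcaguguagauccug

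Reads from the upstream start, with seed GCUCAG (viability 77.3%), were 64.9% and 38.5% of the name at 2 months and 47.7% and 52.4% at 18 months. Reads from the downstream start, with seed CAGUAG (viability 75.4%), were 33.6% and 57.3% in young and 48.6% and 46.2% in old libraries. Which start led therefore differed between the 2-month replicates, by more than the 95% Wilson half-width of at most 6.29 percentage points. The mean seed viability over the reads of miR-222-5p was 76.7% and 75.7% in young and 76.2% and 76.4% in old libraries.

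The guide strands held their 5′ ends closely, and their mean seed viability was 63.7% for miR-221-3p and 63.8% for miR-222-3p in all 4 libraries. Of the reads of miR-222-3p, 3.05% to 3.09% began at another base in every library. The most abundant shifted form begins 2 bases upstream, and that of miR-221-3p 1 base downstream.

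miR-222-3p, 2 bases upstream: gCAGCUACaucuggcuacugggu
miR-221-3p, 1 base downstream: gCUACAUUgucugcuggguuu

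Reads of miR-222-3p from 2 bases upstream, with seed CAGCUA (viability 73.0%), were 1.28% to 1.36% of the name. Reads of miR-221-3p from 1 base downstream, with seed CUACAU (viability 73.8%), were 0.504% and 0.485% in young and 0.424% and 0.444% in old libraries. In all, 0.794% of miR-221-3p reads had a shifted start in both 2-month libraries and 0.708% and 0.645% in the 18-month ones. The ages did not overlap, at the smallest exact permutation p of 0.33 (n = 2 and 2), and the difference was -0.118 percentage points, or -0.0725 when sequences under 1 CPM were left out. How many other miRNAs differ in this way was not counted.

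The 3′ ends differed between the guide strands far more than the 5′ ends. miR-221-3p was mostly 22 nt long, 1 base short of the annotated end, and this single sequence made 50.8% of its reads. miR-222-3p had its most frequent lengths at 21 and 23 nt with a dip at 22, and its most abundant sequence, 2 bases short of the annotated end, made 33.1% of its reads. The leading sequences show how the bases at the 3′ end were trimmed or retained.

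miR-221-3p, 22 nt: aGCUACAUugucugcuggguuu
miR-221-3p, 23 nt: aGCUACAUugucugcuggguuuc
miR-221-3p, 21 nt: aGCUACAUugucugcuggguu
miR-222-3p, 21 nt: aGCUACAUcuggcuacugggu
miR-222-3p, 23 nt: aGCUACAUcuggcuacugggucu
miR-222-3p, 22 nt: aGCUACAUcuggcuacuggguc
miR-222-3p, 20 nt: aGCUACAUcuggcuacuggg

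The 22-nt form of miR-221-3p measured 4093 and 3482 CPM in young and 4495 and 5713 CPM in old libraries. The 21-nt form of miR-222-3p measured 3210 and 4203 CPM in young and 5661 and 4284 CPM in old libraries. Its full-length 23-nt form measured 3121 and 2682 CPM in young and 3575 and 2821 CPM in old libraries. The 23-nt form thus overlapped between the ages while the 21-nt form did not, and neither passed the test (limma adjusted p = 0.889 and 0.635). The test of single sequences covered the 14287 sequences that averaged 1 CPM or more.

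The reads of miR-222-3p included more short forms at 18 months. Reads of 21 nt made 31.1% and 37.9% at 2 months and 38.5% in both 18-month libraries. Reads of 24 nt made 8.03% and 6.56% in young and 5.89% and 5.75% in old libraries, and those of 25 nt 3.53% and 2.66%, then 2.52% and 2.34%. Reads of 20 nt or fewer made 9.66% and 12.1% in young and 13.9% and 13.1% in old libraries. The ages did not overlap for any of these classes. For reads of 20 nt or fewer the exact permutation p was 0.33, the smallest possible (n = 2 and 2), and single lengths were not tested. In all 4 classes 2-month replicate 2 lay nearer to the 18-month libraries than to replicate 1. Reads of 22 nt, at 13.4% and 12.6% in young and 11.6% and 11.4% in old libraries, did not overlap either. How many other miRNAs differ in this way was counted only for reads of 20 nt or fewer. Not every length separated the ages. Reads of 23 nt, at 33.6% and 27.6% in young and 27.3% and 28.4% in old libraries, overlapped. So did reads of exactly 20 nt, at 8.13% and 9.67%, then 9.39% and 10.05%.

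The share of short reads behaved differently for the other guide strand. miR-221-3p had 6.69% and 5.72% of reads at 20 nt or fewer at 2 months and 5.93% and 5.61% at 18 months, with overlap between the ages. Among 199 miRNAs of at least 100 CPM on average that match 1 RefSeq hairpin, 78 (39.2%) had a larger share of short reads in both old libraries and 16 (8.04%) a smaller one. By the size of the difference, miR-222-3p (2.58 points) came 34th and miR-221-3p (-0.435 points) 153rd of the 199, whose median was 0.638 points. Both values depended on 2-month replicate 1, without which they were 1.35 points for miR-222-3p and 0.05 points for miR-221-3p. A larger share of short reads at 18 months was thus not particular to miR-222-3p.

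**Figure D3:**
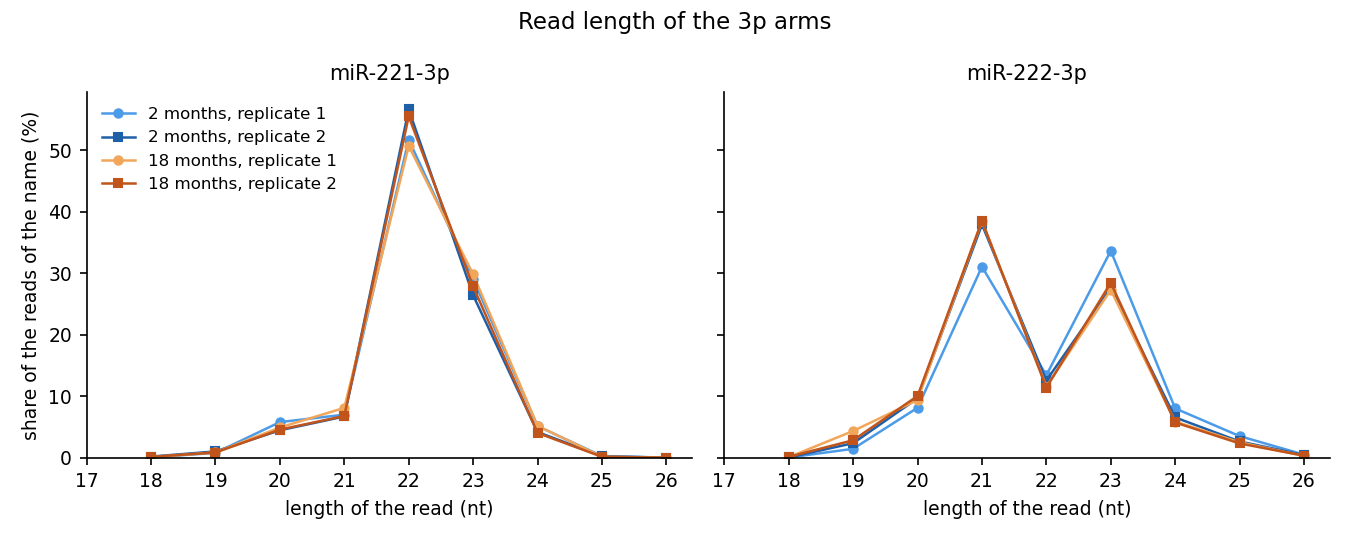
Share of the reads of miR-221-3p and miR-222-3p at each read length, one line per library. miR-221-3p has 1 peak at 22 nt with 50.7% to 56.6% of reads, and miR-222-3p has peaks at 21 and 23 nt, with 2-month replicate 1 lowest at 21 nt (31.1%) and highest at 23 nt (33.6%).

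Bases that are not in the hairpin are added to the 3′ end of many miRNAs by terminal transferases, and the guide strands carried different ones. An added base that equals the next base of the hairpin cannot be seen, which lowers these shares. A base lost or changed near the 3′ end can count as added, which raises them. miR-222-3p mostly carried adenosine, in 9.58% and 8.08% of reads in young and 9.86% and 9.26% in old libraries. miR-221-3p mostly carried uridine, in 8.32% and 9.05% of reads in young and 7.39% and 8.01% in old libraries. Adenosine on miR-221-3p was found in 2.83% and 2.33% of reads in young and 4.47% and 3.19% in old libraries. Uridine on miR-222-3p was found in 2.80% and 2.48% of reads in young and 1.99% and 2.21% in old libraries. For these shares counting error was at most 0.21 points for miR-221-3p and 0.17 points for miR-222-3p (95% Wilson half-widths, which cover counting error only).

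On both guide strands adenosine had a higher mean and uridine a lower mean at 18 months, although for adenosine on miR-222-3p the difference of 0.732 points was -0.0162 points without 2-month replicate 2. The adenosine share of miR-221-3p and the uridine shares of both did not overlap between the ages (exact permutation p = 0.33 each, the smallest possible, n = 2 and 2). On miR-221-3p other or mixed added bases did not overlap either, at 2.51% and 2.36% in young and 3.04% and 2.89% in old libraries. Nor did all its added bases together, at 13.7% and 13.8%, then 14.9% and 14.1%. The adenosine share of miR-222-3p did overlap (exact permutation p = 0.667, n = 2 and 2). Of the 199 miRNAs, 64 (32.2%) had more adenosine in both old libraries and 18 (9.05%) less, while 28 (14.1%) had more uridine and 38 (19.1%) less. The adenosine difference of miR-221-3p (1.25 points) came 38th of 199, against a median of 0.264 points, and was 0.611 points without 18-month replicate 1 and 1.89 points without 18-month replicate 2. Its uridine difference (-0.985 points, or -0.617 without 2-month replicate 2) came 169th, and that of miR-222-3p (-0.539 points) 150th, against a median of -0.0456 points.

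By level, miR-222-3p came 28th of the 199 for adenosine (mean 9.20%, median of all 4.05%) and 113th for uridine (2.37%, median 3.07%). miR-221-3p came 123rd for adenosine (3.21%) and 47th for uridine (8.19%). The added base depended on where the template ended. Of reads of miR-222-3p that ended 3 bases short of the annotated end, 22.2% to 30.3% carried adenosine, and of those that ended 1 base short 18.3% to 21.7%, while of those that ended at the annotated end 1.24% to 1.36% did. On miR-221-3p, reads that ended 2 bases short carried adenosine in 12% and 9.61% of cases in young and in 16.7% and 16.04% in old libraries. This was the one template end of miR-221-3p at which the adenosine shares of the ages did not overlap. At its main end, 1 base short, adenosine was on 2.21% and 1.66% of reads in young and 3.597% and 2.14% in old libraries, and the shares also overlapped at 3, 4 and 5 bases short and 1 base beyond the annotated end.

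**Figure D4:**
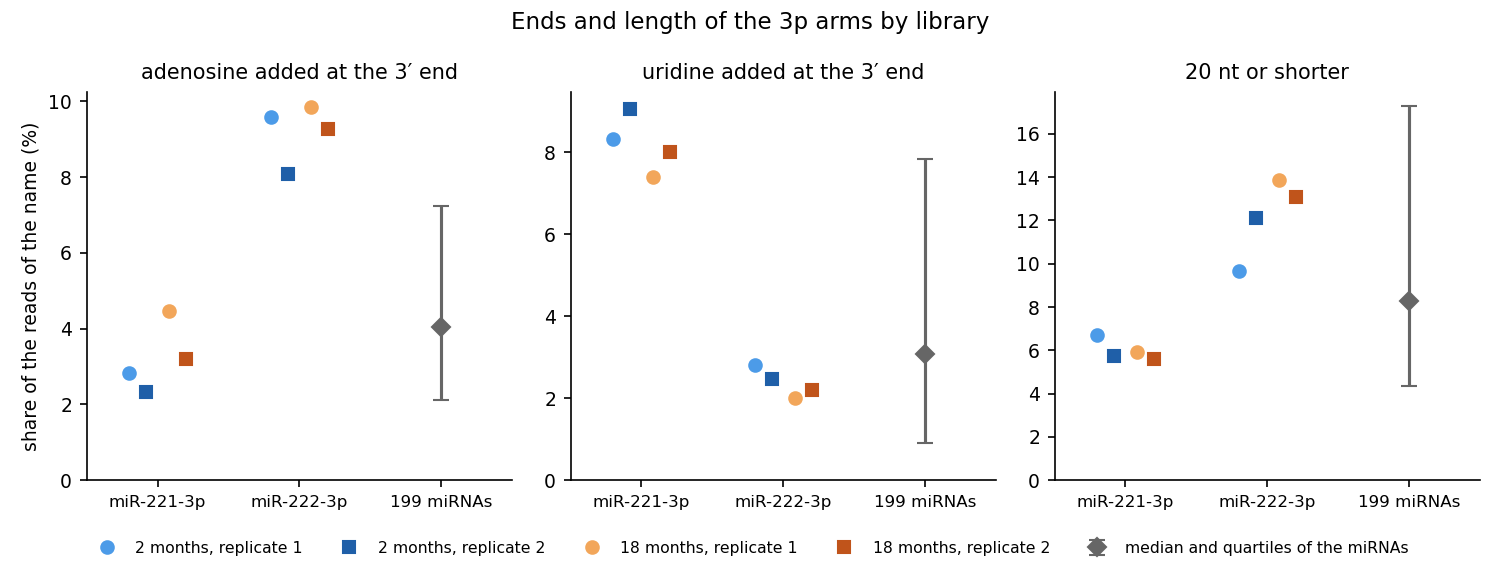
Share of the reads of each guide strand with added adenosine, with added uridine, and of 20 nt or fewer, by library (colored points), beside the median and quartiles of the mean shares of 199 miRNAs (gray). All points of miR-222-3p lie above the upper quartile for adenosine and 3 of the 4 points of miR-221-3p above that for uridine, and the 18-month points of miR-221-3p lie above the 2-month points for adenosine and below them for uridine.

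The single sequences that passed the test were all higher at 18 months for both guide strands. For miR-221-3p, 77 of the 268 sequences averaged 1 CPM or more, and 10 of these passed at an unadjusted p under 0.05 (13.0%). For miR-222-3p it was 11, or 8.73% of those tested. Over all 14287 sequences tested, 1443 passed (10.1%), 838 of them higher (5.87%) and 605 lower (4.23%), and 6 passed after adjustment (0.0420%). None of the members' sequences passed after adjustment in limma. On the rescaled counts 1684 of the 14287 sequences were called, 1376 of them higher and 308 lower, against 1443 on CPM. Called in either direction were 24 of the 77 sequences of miR-221-3p, against 10 on CPM. For miR-222-3p it was 20 of the same sequences tested, against 11 on CPM.

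The count for miR-221-3p depended on each library. It was 16 without 2-month replicate 1, 4 without 2-month replicate 2, 5 without 18-month replicate 1 and 6 without 18-month replicate 2. The count for miR-222-3p was 4 without 18-month replicate 1. Of the tested sequences, 42 of miR-221-3p (54.5%) and 42 of miR-222-3p (33.3%) were higher in both old libraries than in either young one, against 20.5% of all sequences, while 2 of miR-221-3p and 10 of miR-222-3p were lower in both. Sequences of one miRNA share their source and are not independent of each other. The median log2 difference was 0.42 over the tested sequences of miR-221-3p and 0.17 over those of miR-222-3p.

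Forms with a trimmed 3′ end and forms with added adenosine were among those with the largest differences. The first 4 below are the called sequences with the most reads of each guide strand, none of them a full-length form, and the last had the largest difference.

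miR-221-3p, 2 bases short, adenosine added: aGCUACAUugucugcuggguua
miR-221-3p, 1 base short, adenosine added: aGCUACAUugucugcuggguuua
miR-222-3p, 4 bases short: aGCUACAUcuggcuacugg
miR-222-3p, 3 bases short, 2 adenosines added: aGCUACAUcuggcuacugggaa
miR-222-3p, 5 bases short: aGCUACAUcuggcuacug

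The miR-221-3p form that ended 2 bases short with adenosine measured 72.9 and 40.0 CPM in young and 153 and 137 CPM in old libraries. Its log2 difference was 1.41 (SE 0.35, limma adjusted p = 0.268), against 0.61 for the same sequence without the adenosine (limma adjusted p = 0.518). The form 1 base short with adenosine measured 89.1 and 60.9 CPM in young and 172 and 123.6 CPM in old libraries, a log2 difference of 0.98 (limma adjusted p = 0.388). Both 18-month libraries were higher for either form. Whether the forms with adenosine changed more than the forms without it was not tested.

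For miR-222-3p the 19-nt form measured 153 and 275 CPM in young and 700 and 335 CPM in old libraries (log2 difference 1.23, SE 0.41, limma adjusted p = 0.387). The spread within each age was wide, and 18-month replicate 1 lay far above replicate 2. The 18-nt form had the largest difference of all member sequences tested, with 3.05 and 1.76 CPM at 2 months (32 and 20 reads) and 11.8 and 13.1 CPM at 18 months (125 and 119 reads), a log2 difference of 2.01 on the log2(CPM + 1) scale (SE 0.35, limma adjusted p = 0.125). The 22-nt form with 2 added adenosines measured 33.3 and 28.2 CPM in young and 80.7 and 55.7 CPM in old libraries (log2 difference 1.11, limma adjusted p = 0.335).

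Grouped by the 3′ end, 3 of 11 adenosine forms of miR-221-3p tested and 4 of 24 of miR-222-3p were called, and 11 and 19 of them had a difference above 0 (medians 0.58 and 0.33). Over all sequences tested 10.1% were called, with 5.87% called higher at 18 months. Of the sequences with other added or mixed bases, 4 of 29 of miR-221-3p and 2 of 50 of miR-222-3p were called, with 25 and 32 above 0 and medians of 0.55 and 0.17, so that on miR-221-3p this class stood close to the adenosine forms. Of the uridine forms, 1 of 11 and 0 of 12 were called, with median log2 differences of 0.25 and -0.07. Of the sequences of miR-222-3p without added bases, 3 of 10 at 20 nt or fewer were called (median 0.59) and 2 of 17 at 21 nt or more (median 0.11). For miR-221-3p these were 1 of 7 (median 0.37) and 1 of 10 (median 0.40). Of the passenger strands, 1 of 3 tested sequences of miR-221-5p was called and was lower, a 23-nt form at 2.77 and 1.14 CPM against 0.378 and 0.441 CPM (29 and 13 reads against 4 and 4; limma adjusted p = 0.442). None of 6 tested sequences of miR-222-5p was called at an unadjusted p under 0.05 in limma.

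**Figure D5:**
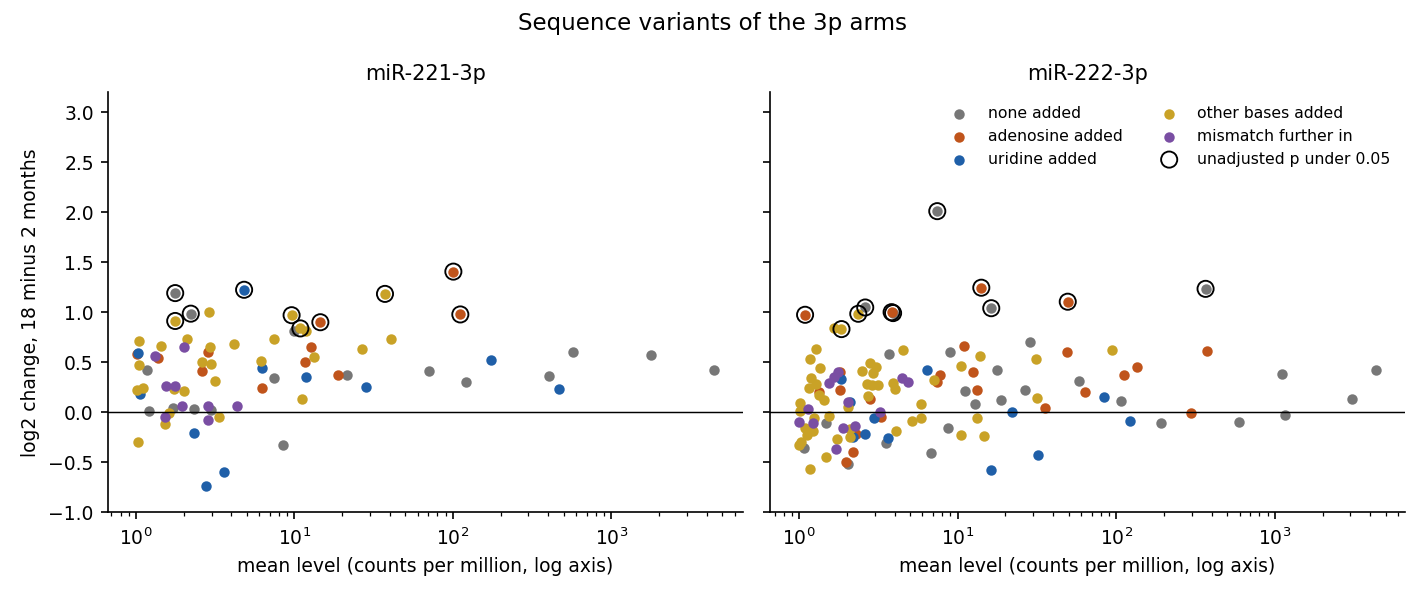
Log2 difference between 18 and 2 months against mean level (log axis) for each tested sequence of the guide strands, colored by what was added at the 3′ end, with a ring around the sequences at an unadjusted p under 0.05. All rings lie above 0, and the highest, at 2.01, is the 18-nt form of miR-222-3p.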

How the data were processed

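Small RNA libraries from Ago pull-downs of mouse cortex and hippocampus (2 per age) were assigned to age and replicate by their labels. The authors trimmed and cleaned the reads (Trim Galore is named in the submitters' notes, with no version), dropped rare reads and compared the others by BLAST with mouse small RNA lists. They deposited normalized counts (CPM, each library scaled to the same sum) for each sequence. The deposited table also holds a viability score for each 6mer seed, in percent of the control. The size selection of the RNA and the removal of rare reads bound the lengths and rare forms that can be seen.

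Dividing by what 1 read was worth gave whole reads for 100% of nonzero values (tolerance 0.001 CPM). At an unadjusted p under 0.05, edgeR on these reads called 62 of 456 miRNAs and DESeq2 called 69.

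The members and lists were chosen with earlier results of these data known. CPM were summed by name, and a two-sided limma fit on log2(CPM + 1), with an intensity trend and age alone in the model, covered miRNAs of at least 10 CPM and sequences of at least 1 CPM on average, with Benjamini-Hochberg adjustment. The study's methods name no test for p under 0.05 per row. For 1 value per library, exact permutation tests were used. Reads were aligned from their 5′ end to RefSeq hairpins (GRCm38.p6), and up to 4 bases beyond the match counted as added. The end measures of 199 of 273 miRNAs of at least 100 CPM, those matching 1 hairpin, were compared in this way, and this comparison and its set were chosen after the members' values were seen. Named miRNAs are the members, the vascular, inflammation, chromosome X and cell type lists, and the 3 nearest by likeness. miR-362-3p was named as the only one of its list called higher.

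Alternatives were a replicate block, pseudocounts of 0.1 and 5 CPM, other filters, no trend, median-of-ratios scaling, edgeR, DESeq2 and leaving out each library. The fits were tested on simulated data. Software was limma 3.58.1, DESeq2 1.42.0 and edgeR 4.0.16 in R 4.3.3, and scipy 1.17.1 and pandas 2.3.3 in Python 3.11.15.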

Additional observations from a re-analysis of the deposited data

Results flagged for a closer look

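The table also holds sequences that lie on these hairpins but were given no miRNA name, which the comparisons above do not use. There were 195 such sequences on the Mir221 hairpin, with a mean of 90.0 CPM at 2 months and 118.40 CPM at 18 months, and 281 on the Mir222 hairpin, with means of 149 CPM and 180.73 CPM. They drew attention as signal in data outside the main measurement, and they amount to 1.19% and 1.25% of the named reads of each hairpin. By library they measured 100 and 79.6 CPM in young and 107 and 129 CPM in old libraries for Mir221, and 149 and 148 CPM, then 201 and 161 CPM, for Mir222, the same order of libraries as the named guide strands except between the 2-month replicates of miR-222. Most carry the shared seed, and 13 and 14 of the sequences are exact parts of the hairpins. The others differ from the hairpin by at least 1 base.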

How the results depend on the processing

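With 2 libraries per age the exact tests cannot reach the threshold, and only the fits over all miRNAs or sequences can call a difference. The log2 difference of miR-221-3p passed an unadjusted p under 0.05 with the median of ratios (0.69), edgeR (0.69) and DESeq2 (0.68), and ran from 0.29 to 0.67 when each library was left out. That of miR-222-3p ran from 0.06 to 0.48. For miR-221-5p the sign turned with the median of ratios (0.19), edgeR (0.17) and DESeq2 (0.16), and leaving out each library gave -0.49 to 0.48. For miR-222-5p it turned with a pseudocount of 5 CPM (-0.0101), and leaving out each library gave -0.55 to 0.55. The 5p arms have no value with the 100 CPM filter.

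Sequences called for miR-221-3p numbered 10, and 21 with no filter, 5 with the 10 CPM filter, 24 with the median of ratios and 4 to 16 without each library. Those for miR-222-3p numbered 11, and 3 with the 10 CPM filter, 20 with the median of ratios and 4 to 10 without each library. Over all sequences, 3327 of 85704 were called with no filter and 424 of 3141 with the 10 CPM filter. Of the 14287 sequences of the main setting, 1443 were called there, 1684 with the median of ratios and 1530 with a replicate block. The shifted-start difference of miR-221-3p was -0.0725 points with sequences under 1 CPM left out. Apart from the number of sequences tested under each filter, the cause was not tested. As a replicate block, the replicate number left the log2 difference of miR-221-3p at 0.48 (limma adjusted p = 0.339) and gave 12 and 11 called sequences. The libraries share only a number: deviations of same-numbered libraries correlated at 0.18. The block changed no call of a member name, while over all 456 miRNAs it called 79 instead of 74, and 0 instead of 1 after adjustment. Leaving out each library turned the sign of further age differences: the log2 arm ratio of miR-222 (-0.33 to 0.87), the log2 ratio of miR-221-3p to miR-222-3p (-0.10 to 0.51), and, in percentage points, the added adenosine (-0.0162 to 1.48), all added bases (-0.928 to 1.49) and shifted starts (-0.0170 to 0.0184) of miR-222-3p and the short reads of miR-221-3p (-0.921 to 0.0517). The mean viability did so for miR-221-3p (-0.00645 to 0.00244), miR-222-3p (-0.00348 to 0.00951) and miR-222-5p (-0.367 to 0.651). With sequences under 1 CPM left out the sign also turned for shifted starts of miR-222-3p (-0.00120, and -0.00804 with 19 to 25 nt alone) and the viability of miR-222-5p (-0.0330).

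The end measures were first compared over a larger set, with miRNAs on more than 1 hairpin included, and that set was replaced after its values were seen. In it 34.5% of miRNAs had more adenosine in both old libraries, 18.8% less uridine and 41.3% more short reads, against 32.2%, 19.1% and 39.2%.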
